A study of Cricetulus griseus and Cricetulus griseus
Mus musculus and Mus musculus with 202 samples.

Results

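Neuropeptides are short signalling peptides that neurons cut from larger precursor proteins, store in dense-core granules and release beside classical transmitters. Prohormone convertases cut the precursor at basic residues, carboxypeptidase E trims the ends, and the finished peptides act on G protein-coupled receptors. In brain they are known for their part in feeding, pain, stress and daily rhythm, and several of them mark classes of cortical interneuron. The genes followed here were 10 listed precursor genes, Npy, Sst, Cck, Vip, Penk, Pdyn, Tac1, Crh, Pomc and Cartpt. They were taken where the array's probe table gave a feature that symbol alone. That held for 9 of the 10, each with 1 feature, among 16504 genes with single-symbol features. Crh, which encodes the hormone that starts the stress axis, was matched to no feature of the table used here and was not analysed.

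Mouse whole brain RNA was set against Chinese hamster whole brain RNA on 2 arrays, and mouse whole liver RNA against hamster whole liver RNA on 2 more. The other 198 arrays set 99 radiation hybrid lines of the T31 panel against A23, with 2 arrays for each line. A radiation hybrid line is a hamster cell line that carries random fragments of the mouse genome, and A23 is the thymidine kinase-deficient hamster line that received them. A23 was thus the comparator of every line, and all cells were grown in the same medium with serum. In replicate 1 the hybrid or mouse RNA carried Cy3, and in replicate 2 the dyes were exchanged. A replicate number therefore stands for an orientation of the dyes. The labels name no strain, age, sex or number of animals for the tissues, and the p-values measure only the spread between these arrays, which may be technical.

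All values are log2 ratios, of mouse over hamster in the tissues and of hybrid over A23 in the lines. A ratio holds no level, so the tissues could not be checked against their marker genes. A transcript that is less abundant in hamster and a hamster transcript that binds the mouse probe poorly cannot be told apart in such a ratio. The values show that nearly every feature (99.3%) had been centred over the 4 tissue arrays before deposit. Centring moves both arrays of a tissue in opposite directions once the ratios are turned to mouse over hamster, so it leaves a tissue's mean as it was and alters the gap between its arrays. For this reason a second fit, in which the orientation entered as a replicate block to take that offset out, has its adjusted p beside each result whose call it changes. In the fit without the block, the altered gap enters the spread that its p-values measure. The sign of a single tissue array, and the overlap of arrays of different orientation, depend on the offset. Brain and liver arrays of the same replicate number move alike, so their order does not. Array spread over the whole series (SD, log2) ran from 0.397 to 2.43.

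In brain, the opioid precursor Penk had the highest mouse over hamster ratio of the 9 genes, followed by Npy and Cck. These 3 passed the test as higher in mouse brain. Sst had a positive mean without passing, and Tac1 a negative one without passing. The 95% intervals of Sst, Pdyn, Pomc, Vip and Cartpt included 0. With any 1 of the 4 tissue arrays left out, the brain ratio was 4.38 to 6.64 for Penk, 1.88 to 2.35 for Npy and 1.18 to 2.01 for Cck. None of the 3 then passed (limma adjusted p from 0.0851 to 0.137), in fits with 1 residual degree of freedom, where a tissue left with 1 array is assumed to vary like the other.

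Penk encodes the enkephalins, which act on the delta and mu opioid receptors and are abundant in the striatum. Its brain ratio was 6.64 in replicate 1 and 4.38 in replicate 2. The value in replicate 1 lay at the floor of the deposited ratios, so it is a lower bound, and the mean of 5.51 is one as well. The mean corresponds to mouse brain being at least 45.6-fold above hamster brain (limma adjusted p = 0.0375). Without the floor value the remaining array gave 4.38 and missed (adjusted p = 0.0636), as did the mean after all arrays were scaled to the same spread, at 5.28 (adjusted p = 0.0505). In liver Penk was 2.30 and 0.85, a mean of 1.57 ± 0.75 (SE, n = 2), which did not pass (adjusted p = 0.192) but did with the replicate block (adjusted p = 0.0220). Brain was above liver in each dye orientation. Brain minus liver was at least 3.94, with an adjusted p of 0.113 in the fit without the block and 0.0183 with it.

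Npy encodes neuropeptide Y, a peptide of hypothalamic feeding neurons and of many interneurons. Its ratio was 1.88 and 2.35 in brain, against 0.037 and 0.036 in liver. The brain mean of 2.12 ± 0.17 (SE, n = 2; 95% interval 1.62 to 2.62) equals a 4.34-fold higher signal in mouse and passed (limma adjusted p = 0.0229). The liver mean of 0.037 did not pass (adjusted p = 0.876). Npy was the only one of the 9 genes whose brain ratio differed from its liver ratio in the main test, by 2.08 ± 0.23 (limma adjusted p = 0.0458). The centring set the gap between the liver arrays of Npy. That gap enters this SE, and also the SE and interval of the brain mean. With the replicate block the SE was 0.22 for the brain mean and 0.32 for the difference. The brain mean and the difference also passed there (limma adjusted p = 0.00695 and 0.0388). With a robust variance estimate the difference just missed (adjusted p = 0.0503).

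Cck encodes cholecystokinin, a satiety peptide of the gut that is also made by cortical and hippocampal neurons. It was 2.01 and 1.18 in brain, against 0.47 and 0.36 in liver. All 4 values were above 0 as centred, and brain was above liver in each orientation. The brain mean of 1.59 ± 0.25 (SE, n = 2; 95% interval 0.84 to 2.35) was 3.02-fold higher in mouse (limma adjusted p = 0.0441), and with the arrays scaled it missed, at 1.53 (adjusted p = 0.0577). The difference from liver, 1.18 ± 0.36, did not pass (adjusted p = 0.134).

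Sst encodes somatostatin, which marks a large class of interneurons and inhibits growth hormone release. It was 0.38 and 1.61 in brain, against -0.30 and -0.46 in liver, so brain was above liver in each orientation. The brain mean of 1.00 ± 0.36 had a 95% interval of -0.08 to 2.07 and did not pass (limma adjusted p = 0.120), and brain minus liver was 1.38 (adjusted p = 0.177). Vip, which encodes vasoactive intestinal peptide of interneurons and of the circadian clock nucleus, was -0.66 and -0.04 in brain, against 0.05 and 0.04 in liver. Its brain mean of -0.35 ± 0.20 did not pass (adjusted p = 0.240).

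Pdyn, the precursor of the dynorphins that act on the kappa opioid receptor, was 0.89 and -0.11 in brain, against -0.11 and 0.74 in liver. As centred, the arrays of each tissue had opposite signs. Neither mean passed (limma adjusted p = 0.450 in brain and 0.539 in liver). Pomc, which yields ACTH, the melanocortins and beta-endorphin, was -0.13 and -0.14 in brain, against -0.40 and -2.06 in liver. The close agreement of the brain pair was set by the centring. The brain arrays of Pomc held the middle pair of its 4 deposited ratios, whose median was centred on 1. That fixes the gap between them for a given mean. The liver mean of -1.23 ± 0.47 did not pass (adjusted p = 0.142). The liver arrays held the middle pair for Npy, Cck and Penk, so the gaps between those arrays were set in the same way.

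Tac1 encodes substance P and neurokinin A, which act on the tachykinin receptors. It was -0.99 and -0.78 in brain, against -0.51 and -1.09 in liver, and all 4 values were below 0 as centred. Neither the brain mean of -0.89 ± 0.20 nor the liver mean of -0.80 ± 0.20 passed after adjustment (limma adjusted p = 0.0670 and 0.0903). Cartpt, the precursor of a peptide of feeding and reward circuits, was -0.66 and -0.36 in brain, against -0.29 and -1.55 in liver. It was also below 0 on all 4 arrays as centred. Its means of -0.51 ± 0.37 in brain and -0.92 ± 0.37 in liver did not pass (limma adjusted p = 0.331 and 0.153).

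**Figure D1:**
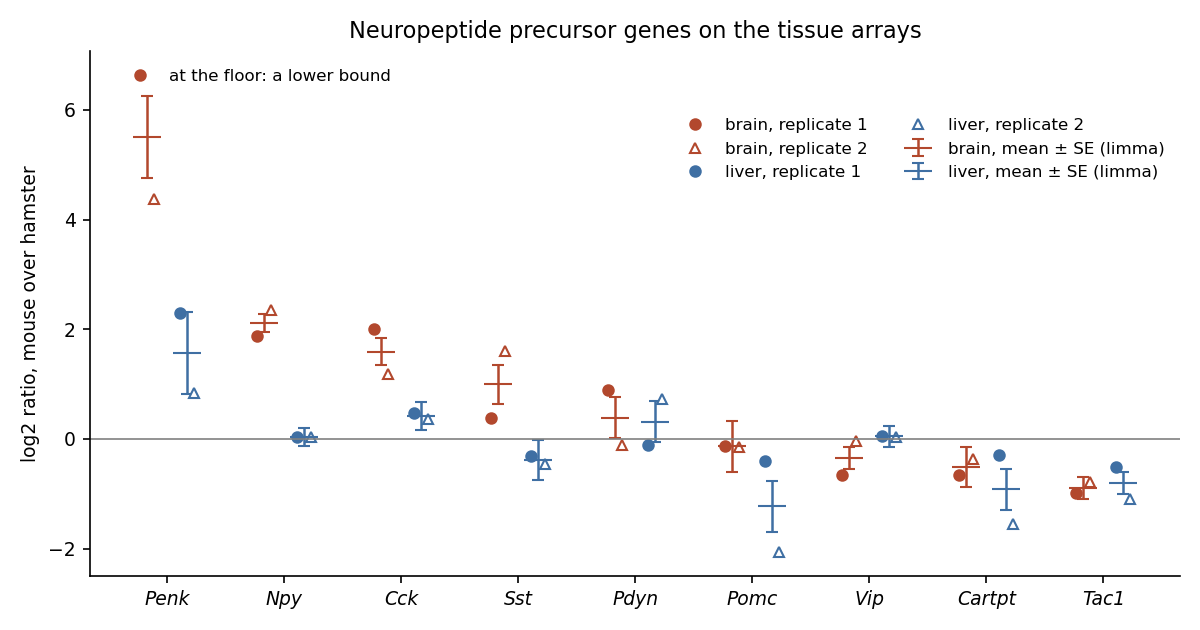
Log2 ratio of mouse over hamster for the 9 measured precursor genes, ordered by brain mean, with brain left of liver for each gene. Filled circles are replicate 1, open triangles replicate 2, and bars the mean ± SE from limma on all 4 arrays; Penk, Npy and Cck stand highest in brain, and the first Penk array is at the floor, a lower bound.

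In count, limma called 3 of the 9 genes higher in mouse brain, against 10.1% of all 16504 genes, and 0 lower, against 5.91%. Unadjusted p-values under 0.05 were found for 3 higher genes and 1 lower gene, against 25.8% and 21.2% of all genes. The replicate block gave the same 3 and 0, against 21.1% and 10.5% of all genes. The median brain ratio was 0.39 over the 9 genes and 0.06 over all genes. In liver 0 were higher and 0 lower by limma, against 2.35% and 2.26% of all genes, with 0 higher and, unadjusted, 1 lower, against 20.7% and 21.8%. With the block 1 was higher and 0 lower, against 16.3% and 9.22%. For brain minus liver 1 gene was higher and 0 lower, against 3.53% and 2.54%, and with the block 2 and 0, against 4.84% and 3.97%. Unadjusted, 3 were higher in that difference and 0 lower, against 18.7% and 13.9%. With so few genes these shares are a description, and nothing particular to the precursors is drawn from them.

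Of the receptors for these peptides, the NPY receptors Npy2r and Npy5r were higher in mouse brain. Npy2r, which sits mainly on nerve endings, was 6.64 and 4.90 in brain, against a mean of 1.38 in liver. Its first brain value lay at the floor, so the mean of 5.77 is a lower bound (limma adjusted p = 0.0277). The liver mean of Npy2r passed only with the replicate block (adjusted p = 0.164 without and 0.0247 with it). Npy5r, which takes part in the feeding response, was 1.68 and 2.33 in brain, a mean of 2.01 ± 0.21 (SE, n = 2; adjusted p = 0.0282), against 0.11 in liver (adjusted p = 0.692). Sstr5, a somatostatin receptor, was higher by 0.74 ± 0.11 (adjusted p = 0.0435). Tacr1, the substance P receptor, was lower, at -0.73 ± 0.12 (adjusted p = 0.0445). Sstr5 and Tacr1 both missed with the replicate block (adjusted p = 0.0636 and 0.0656).

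In all, 3 of 27 measured receptor genes were higher and 1 lower in brain, with a median of -0.0025, where 10.1% and 5.91% of all genes were called. With the block the counts were 3 and 3, where 21.1% and 10.5% of all genes were called. Named after their values were seen, the genes called there were Npy1r at 1.31 (adjusted p = 0.0225), Npy2r and Npy5r as higher, and Tacr2 at -1.07 (0.0346), Tacr3 at -1.07 (0.0446) and Mc3r at -0.90 (0.0446) as lower. Npy6r, at 0.34, and Npy4r, at -0.33, are the remaining NPY receptor genes of the list, and neither was called in either fit. In liver limma called 0 receptor genes higher and 0 lower, with 3 and 9 at an unadjusted p under 0.05 and 1 and 1 with the block. The shares of all genes there were 2.35% and 2.26%, 20.7% and 21.8% unadjusted, and 16.3% and 9.22% with the block.

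Among genes that process and store the precursors, Pcsk7, a convertase of the secretory pathway, was higher in mouse brain by 0.94 ± 0.11 (SE, n = 2; limma adjusted p = 0.0305). Scg3, a granule protein, was higher by 0.76 ± 0.11 (adjusted p = 0.0390), a call that the block did not keep (adjusted p = 0.0585). Cpz, a carboxypeptidase of the cell surroundings, was lower, at -3.20 ± 0.16 (adjusted p = 0.0187), and its difference from liver of -2.79 passed as well (adjusted p = 0.0386). These were the 2 higher and 1 lower of 25 measured genes, against 10.1% and 5.91% of all genes, and the 25 had a median of 0.13. With the block Cpz was lower and 5 were higher, where 10.5% of all genes were lower and 21.1% higher. Named after their values were seen, the 5 were Pcsk7, Pcsk1, its inhibitor Pcsk1n, Pcsk5 and the sulphating enzyme Tpst1. Pcsk1 is a main convertase of neuropeptide granules. It was 3.12 and 0.91 in brain, against -4.45 and -5.42 in liver. The means of 2.02 in brain and -4.93 in liver missed without the block (adjusted p = 0.107 and 0.0555) and passed with it (adjusted p = 0.0140 and 0.00512). Cpe, which trims the cut peptides, was 1.21 and 0.46 in brain and passed in neither fit (adjusted p = 0.0838 and 0.0640).

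Other peptide precursors went both ways. Kiss1, whose peptide drives the reproductive axis, was 2.63 ± 0.16 (SE, n = 2; limma adjusted p = 0.0190), with a difference from liver of 3.27 (adjusted p = 0.0343). Pyy, a gut relative of Npy, was 2.19 ± 0.31 (adjusted p = 0.0394). Its liver mean of 1.31 passed only with the block (limma adjusted p = 0.0868 without and 0.0335 with it). Brain minus liver did not pass for Pyy (adjusted p = 0.277). Ghrl, the precursor of the hunger hormone ghrelin, was -2.95 ± 0.27 (adjusted p = 0.0261), and Npb, which encodes neuropeptide B, was -1.66 ± 0.13 (adjusted p = 0.0234). The remaining lower gene, Npff, named after its value was seen, was -1.34 (adjusted p = 0.0290). In this list 2 of the 36 measured were higher and 3 lower, with a median of 0.05, and 5 and 4 with the block. Of 11 genes for peptide breakdown and binding, 1 was higher and 0 lower by limma, with 2 and 2 at an unadjusted p under 0.05 and 2 and 0 with the block. The higher gene was Npepps, an aminopeptidase, at 1.69 ± 0.14 (limma adjusted p = 0.0234). For both lists the shares of all genes were 10.1% higher and 5.91% lower, 25.8% and 21.2% unadjusted, and 21.1% and 10.5% with the block.

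**Figure D2:**
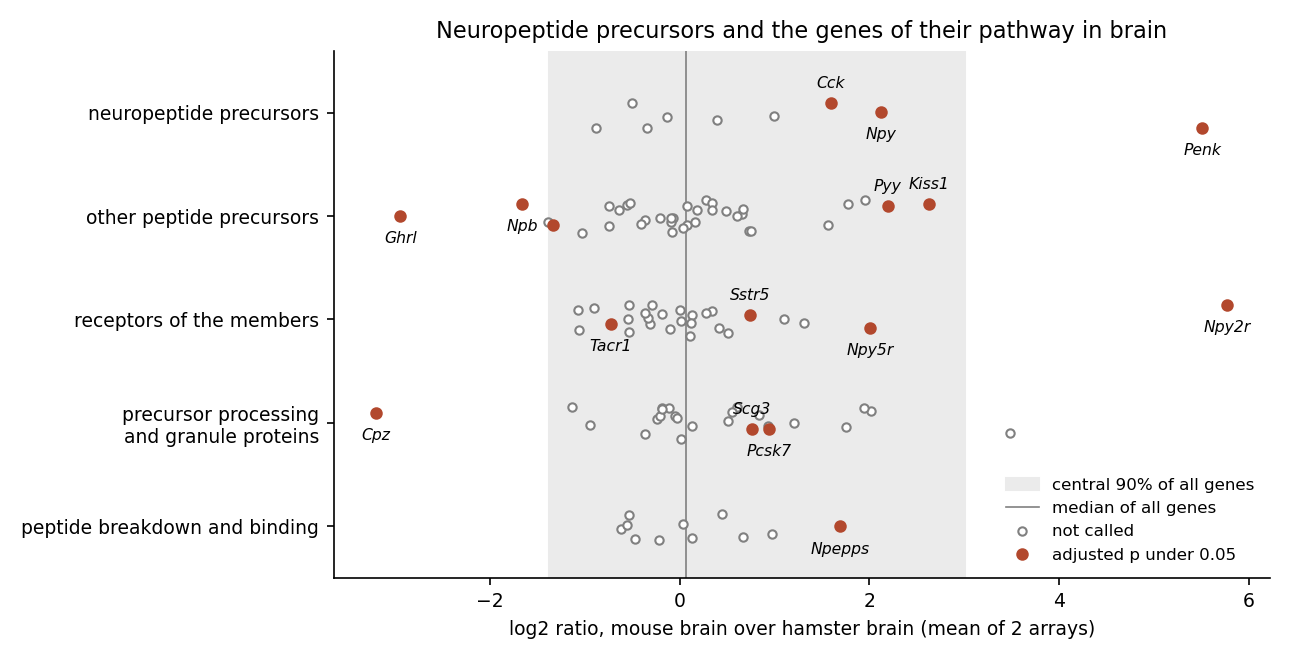
Mean log2 ratio of mouse brain over hamster brain (2 arrays) for each measured gene of the precursor list and of 4 lists of related genes. Filled points have an adjusted p under 0.05 and open points do not, the shaded band holds the central 90% of all 16504 genes and the line is their median; Penk and Npy2r, both lower bounds, lie far to the right of the band.

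Genes of the cells that could carry these peptides were set beside them. Of 14 genes of GABA neurons and interneurons, 0 were higher and 0 lower in brain by limma, with 4 and 0 at an unadjusted p under 0.05 and 0 and 0 with the block, and their median was 0.33. Of 9 pituitary genes, which bear on Pomc, 0 were higher and 0 lower by limma, with 1 and 3 at an unadjusted p under 0.05 and 0 and 1 with the block. Of 15 neuron genes, limma called 2 higher and 0 lower, with 3 and 2 unadjusted and also with the block, and their median was -0.22. The genes called higher by limma were Eno2, the neuronal enolase, at 3.14 ± 0.39 and Camk2a, a kinase of excitatory synapses, at 1.46 ± 0.21 (adjusted p = 0.0341 and 0.0396). With the block, and named after their values were seen, Snap25 at 3.24 was also higher (adjusted p = 0.0168) and Map2 at -3.26 and Rbfox3 at -0.91 were lower (adjusted p = 0.00816 and 0.0390). Of all genes, 10.1% were higher and 5.91% lower in brain, 25.8% and 21.2% unadjusted, and 21.1% and 10.5% with the block. The part of these listed genes in the ratios of the precursors was not tested. Of 12 liver genes, 4 were higher and 0 lower in mouse liver by limma, with 5 and 3 at an unadjusted p under 0.05 and 5 and 2 with the block. In brain 0 of the 12 were higher and 0 lower by limma, with 0 and 3 at an unadjusted p under 0.05 and 0 and 1 with the block. In liver the shares of all genes were 2.35% and 2.26%, 20.7% and 21.8% unadjusted, and 16.3% and 9.22% with the block.

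In the hybrid lines, none of the 9 precursor genes was called higher or lower than A23 as a panel mean. A call needed an adjusted p under 0.05 and a mean of at least 0.2 in size. That is 0 higher and 0 lower by limma, against 19.5% and 11.4% of all genes. Without the size limit and unadjusted, 1 was higher and 2 were lower, against 32.7% and 28.9%. The means of the 9 genes ran from -0.18 to 0.20, with a median of 0.0076, against 0.013 over all genes.

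Sst had the highest mean, 0.20 ± 0.06 (SE, n = 99), just under the size limit (limma adjusted p = 0.00195). Among its line means the lowest was -1.14, the median 0.13 and the highest 1.39. The mean was 0.63 in replicate 1 and -0.23 in replicate 2, so its sign depended on the dye orientation. Npy had the lowest mean, -0.18 ± 0.04 (adjusted p = 7.7e-05), with lines from -1.54 to 0.99 and a median of -0.14. Line 42 was lowest, with a replicate 1 array that spread more than any other of the series (SD 2.43), and line 23 was highest; the mean was -0.17 without line 42 and -0.19 without line 23. It averaged -0.36 in replicate 1 and -0.0040 in replicate 2. Cck averaged -0.16 ± 0.03 (adjusted p = 9.3e-06), with lines from -0.99 to 0.71 and a median of -0.12, and was 0.012 in replicate 1 and -0.32 in replicate 2. For these 3 genes the adjusted p was under 0.05 and the size under the limit, and in each the bulk of the mean came from a single orientation or the orientations had opposite signs.

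Tac1 averaged 0.014 ± 0.09 and Cartpt 0.10 ± 0.10, and these 2 had the widest spread of the 9 genes over lines (SD 0.857 and 1.01). Tac1 was 0.68 in replicate 1 and -0.65 in replicate 2, and Cartpt 0.73 and -0.52. Vip was 0.28 and -0.27, for a mean of 0.0076 ± 0.07. Ratios of exactly 0 made up 38.9% of the arrays for Cartpt, 31.8% for Tac1 and 26.3% for Vip, against at most 6.06% for the other 6 genes. Pdyn averaged -0.04 ± 0.02, Penk -0.011 ± 0.04 and Pomc 0.026 ± 0.03, and none of these 6 genes passed (adjusted p from 0.141 for Pdyn to 0.937 for Vip).

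The mean was above 0 in replicate 1 for 8 of the 9 genes and below 0 in replicate 2 for 9 of 9. The hybrid carried Cy3 in replicate 1 and A23 carried it in replicate 2, so in both the Cy3 side was the brighter for these 8 genes. Among all genes 34.6% had this pair of signs, and 61.3% had opposite signs in the orientations. With the test run in each orientation alone, 0 of the 9 genes were called the same way in both by limma, against 6.08% of all genes called higher in both and 3.26% called lower in both.

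**Figure D3:**
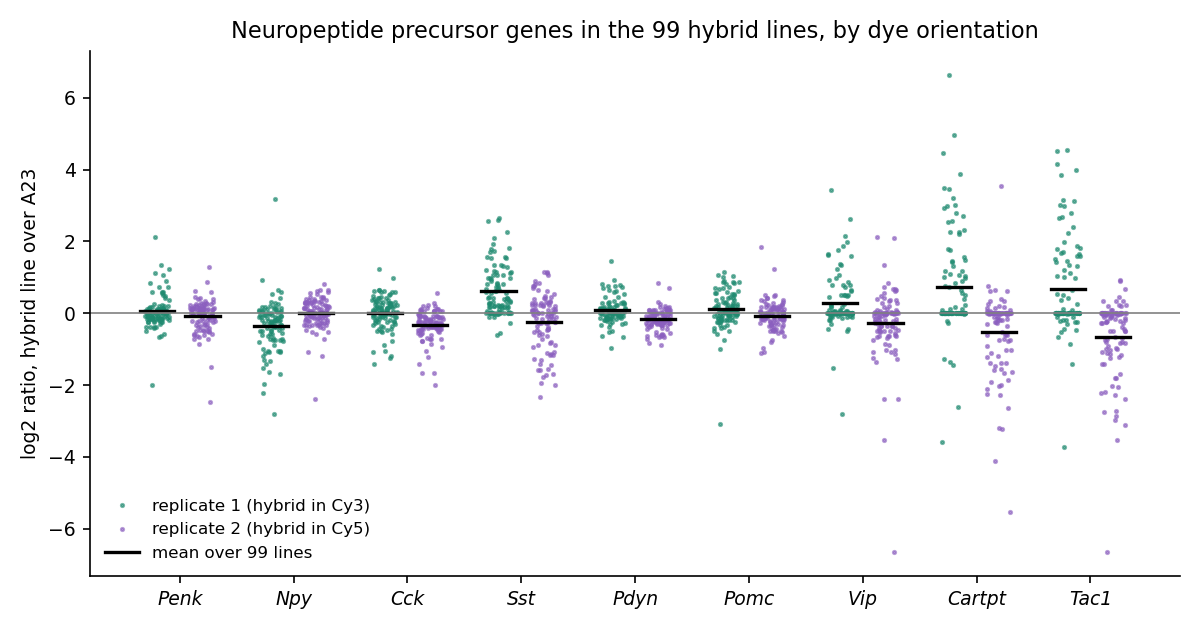
Log2 ratio of hybrid line over A23 for the 9 precursor genes, each point a line's array, with replicate 1 left of replicate 2 and a bar at the mean over 99 lines. For 8 of the 9 genes the replicate 1 mean is above 0, and all 9 replicate 2 means are below 0, most widely for Tac1 and Cartpt.

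Since each line holds other mouse fragments, the genes were also asked whether they differ between lines. Vip was the only one of the 9 to pass limma's F test (adjusted p = 0.000469), against 8.88% of all genes, and 4 of the 9 were under 0.05 unadjusted, against 18.6% of all genes. Vip's intraclass correlation, the likeness of both arrays of a line, was 0.391, and 3.91% of all genes had a higher value. In the fit of all 99 lines the call rested on line 23. In line 23 Vip was -2.81 in replicate 1 and -6.64 in replicate 2, the second at the floor. Without line 23 the intraclass correlation was 0.198 and Vip did not pass (adjusted p = 0.133). Without the dye term it also missed (adjusted p = 0.0502). With the arrays scaled it passed the F test (adjusted p = 0.0113). It also passed over the 28 lines whose arrays match best, which leave out line 23 (adjusted p = 0.0153). Those lines had been picked for the likeness of their arrays across genes, so that result is no independent support. The arrays of line 23 had a spread of 2.17 and 1.33 (SD, log2), against a median of 0.838 over the series, and correlated at -0.408 with each other across genes once each orientation was centred.

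A line was counted as high where both arrays were above 1, and as low where both were below -1. Vip was high in line 20, at 1.97 and 1.33, and in line 49, at 1.07 and 2.10, and low in line 23. The arrays of line 20 matched each other well across genes (r = 0.423), and those of line 49 did not (r = -0.0352). Cartpt was high in line 29, at 6.64 and 3.54, where the first value is at the floor and so a lower bound, and low in line 24, at -1.27 and -2.11. Sst was high in line 32, at 1.32 and 1.16. The arrays of a line correlated across genes at 0.175 for line 29, 0.141 for line 24 and 0.164 for line 32. The second array of line 29 had an SD of 1.77, against a median of 0.838 over the series. Penk was low in line 23, at -2.0 and -1.49, the line in which Vip was lowest. Npy, Cck, Pdyn, Tac1 and Pomc had no line of either kind.

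The intraclass correlation was 0.214 for Sst, 0.188 for Penk and 0.176 for Cartpt, and these did not pass the F test (limma adjusted p = 0.116, 0.254 and 0.186). Without line 23 the value of Penk was 0.0584. For Pdyn it was 0.0186, for Tac1 -0.0307, for Cck -0.0378, for Npy -0.0754 and for Pomc -0.163, so that for the last 4 the arrays of a line were no more alike than arrays of different lines. The value of Npy was 0.0624 without line 23, in which its arrays lay far apart. The median over all genes was 0.0414.

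**Figure D4:**
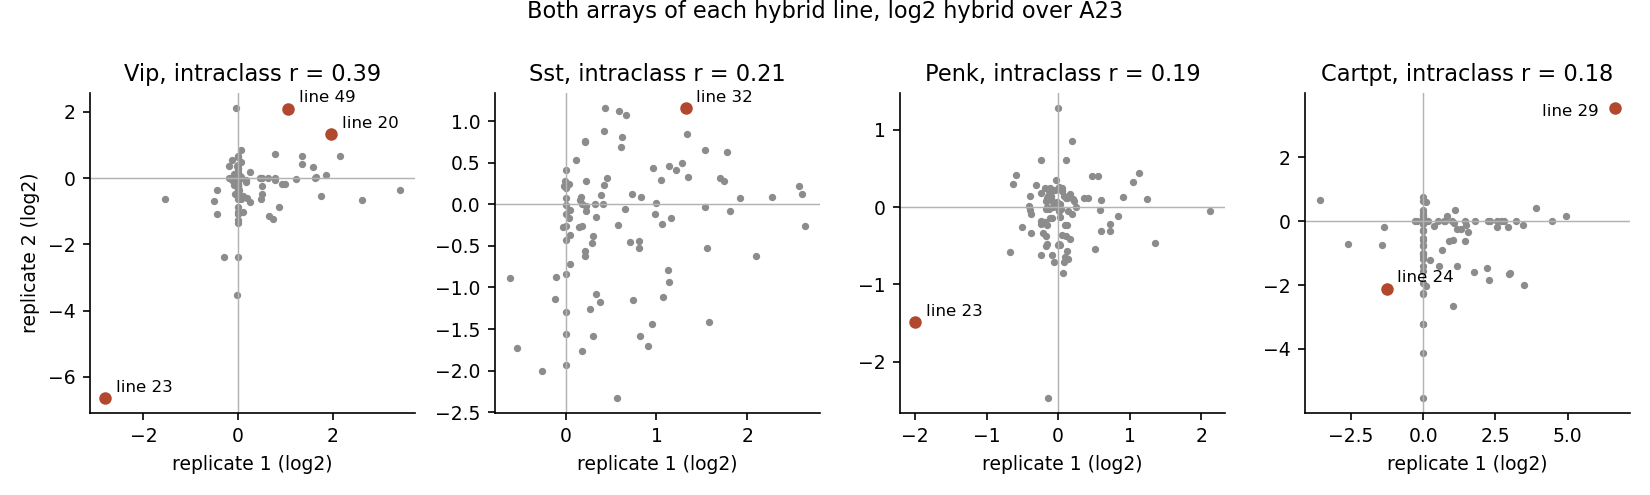
Replicate 1 against replicate 2 for each of the 99 hybrid lines (log2 hybrid over A23) for Vip, Sst, Penk and Cartpt, with the lines counted as high or low marked. Line 23 lies alone at the lower left for Vip and line 29 at the upper right for Cartpt.

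The 3 genes whose line means were most like those of each precursor gene were listed by Pearson correlation over the 99 lines, as a description, since the values compared come from the same arrays. Npy had the closest, Fgf11 (r = 0.895), a growth factor homologue of neurons, Rtn4r (0.872), the Nogo receptor, and Bpifb6 (0.865). The match to Fgf11 was 0.92 in replicate 1 alone and 0.789 in replicate 2 alone, and 0.886 over lines without line 23 and 0.881 without line 42. Npy's own arrays of a line correlated at only -0.0857, and those of Fgf11 at 0.0365. The likeness was thus seen between genes on the same array and not between the arrays of a line. A closest match above that of Npy was found for 7.19% of all genes. Cck was most like Olfr1208 (0.780) and Sst most like Olfr160 (0.696), both olfactory receptor genes. For the other 6 genes the closest match lay between 0.530 and 0.672. These values, and that of Sst, were below the median of 0.708 for all genes. Among the 36 pairs of precursor genes the correlation ran from -0.382 for Npy with Vip to 0.541 for Npy with Cck, with a median of -0.029. Npy with Cck was 0.692 in replicate 1 and 0.353 in replicate 2, while Npy with Vip was -0.439 and 0.0355.

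**Figure D5:**
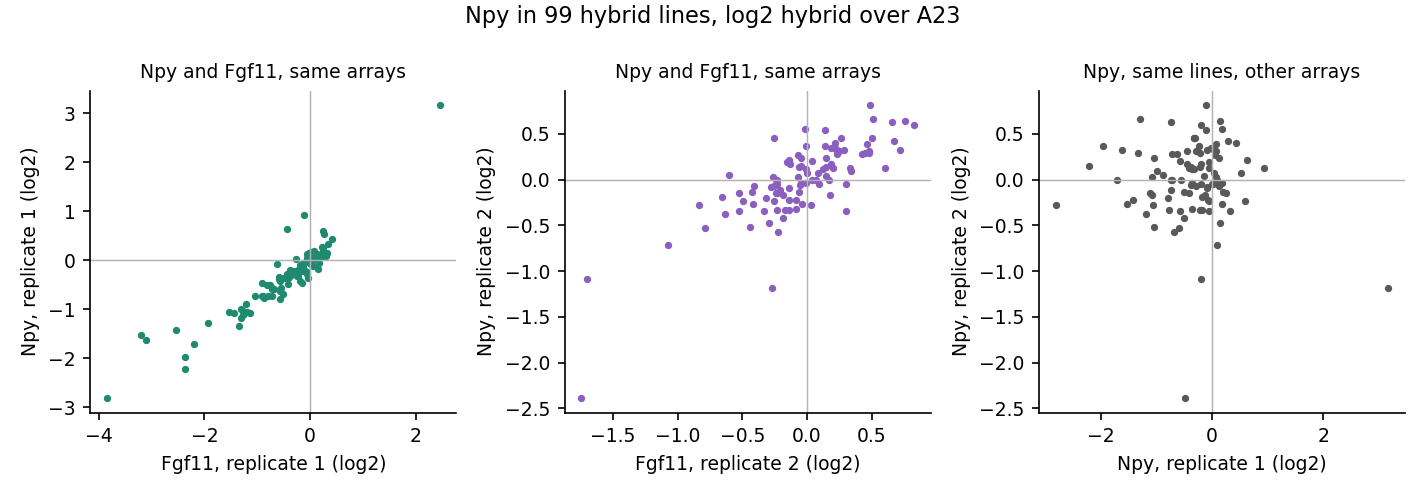
Npy against Fgf11 on the 99 arrays of replicate 1 and on the 99 of replicate 2, and Npy in replicate 1 against replicate 2 of the same lines (all log2 hybrid over A23). Npy follows Fgf11 within each set of arrays, while its own pairs of arrays show no common trend (r = -0.0857).

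Some related genes were called the same way in both orientations. Gal, the galanin precursor, averaged 1.11 ± 0.07 over lines (SE, n = 99), with 1.27 in replicate 1 and 0.95 in replicate 2, and Tac2, which encodes neurokinin B, averaged -0.49 ± 0.04, with -0.59 and -0.39. Nppc, the C-type natriuretic peptide precursor, averaged 0.32 ± 0.04. Of the 36 other precursors these were the 2 higher and 1 lower in both orientations, named after their values were seen, where 6.08% and 3.26% of all genes were called. Receptor genes gave 0 higher and 0 lower in both orientations by limma, and 0 higher and 3 lower in the panel mean (Oprd1, Npy1r and Tacr2, named after their values were seen). Oprd1, the delta opioid receptor, was -1.23 in replicate 1 and 0.22 in replicate 2, and Npy1r was 0.11 and -1.02, so the signs of both were opposite in the orientations. Tacr2 was -0.37 and -0.062. Over all genes 19.5% were called higher and 11.4% lower in the panel mean. Of the 25 processing genes, 7 were higher and 2 lower in the panel mean. Tpst1 and Rab27a were higher and Pcsk1n was lower in both orientations, named after their values were seen. Of the 11 genes for peptide breakdown and binding, 0 were higher and 5 lower in the panel mean. In both orientations 0 of these 11 were higher and 1 was lower. Cpe differed between lines by limma's F test, with an intraclass correlation of 0.474 (adjusted p = 1.3e-05). So did Tpst1 (0.436, adjusted p = 4.1e-05) and Cpd (0.292, adjusted p = 0.0478). Cpe, Tpst1 and Cpd are the processing genes that passed, named here after their values were seen. Of the 36 other precursors 1 differed between lines, Pyy (0.336, limma adjusted p = 0.00335), with 5 at an unadjusted p under 0.05. Of the 11 genes for peptide breakdown and binding 2 differed, with 2 unadjusted. Among the receptor genes 0 of 27 differed, with 0 also at an unadjusted p under 0.05. The shares of all genes were 8.88% and, unadjusted, 18.6%.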

How the data were processed

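Each deposited value is the log10 of a Cy5 to Cy3 ratio, per the labels. How the scans were background-corrected and normalised is not given in these sources. Per the labels, replicate 2 exchanged the dyes. Each ratio was turned to mouse over hamster or hybrid over A23 and converted to log2. The lowest deposited log10 value, -2, acts as a floor, which after turning is 6.64 on the log2 scale in replicate 1 and -6.64 in replicate 2. In 99.3% of features the 4 linear tissue ratios had a median of 1 (tolerance 1e-06), the mark of centring per feature. Signal over background is unknown, and precision is limited by how many arrays there are.

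Symbols came from the probe table of the platform. Features with 1 symbol were averaged per gene (17786 features, 16504 genes); 16 had several symbols and 3066 none. The genes and lists were chosen with earlier results of these data known. limma 3.58.1 in R 4.3.3 was run on all genes with Benjamini-Hochberg adjustment. Each fit was also run on simulated data, which did not include the centring and so cannot show its effect. The 4 tissue arrays were fitted together by tissue (2 residual degrees of freedom), and ± values of tissues are that fit's SE. The panel mean was tested against 0 on 1 mean per line, and lines by the moderated F test on 198 arrays with dye orientation as a term. Brain and liver deviations of the same replicate number correlated at 0.439 over genes, which the centring helps to set; the number marks the dye orientation. All listed precursor genes are named, with up to 4 called genes by brain ratio from each related list and 3 genes by likeness. Alternatives were the replicate block, arrays left out, scaling, the floor, exact zeros, robust eBayes, single features, the size limit, and lines whose arrays match best. Neighbouring genes and sequences were not analysed here.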

Additional observations from a re-analysis of the deposited data

Results flagged for a closer look

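The mouse over hamster ratio of Npy differed between the tissues by a test of the difference itself. Npy was 2.12 in brain and 0.037 in liver, and brain minus liver was 2.08 ± 0.23 (SE; limma adjusted p = 0.0458, from 0.0388 to 0.16 over the alternatives). Brain was above liver in each dye orientation. The centring set the gap between the liver arrays, which enters this SE, and with the replicate block the SE was 0.32. With any 1 of the 4 arrays left out the difference was 1.85 to 2.32 and missed the threshold, in fits with 1 residual degree of freedom, where the tissue with 1 array takes its spread from the other.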

How the results depend on the processing

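The direction of Penk, Npy and Cck in brain stayed positive in every alternative run. With the replicate block the count of precursor genes called higher was 1 in liver and 2 for brain minus liver, Penk being added in both. It changed no other call of a precursor gene in the tissues. With the arrays scaled 1 gene was higher in brain, and with robust eBayes 0 differed between the tissues. For both settings the share of all genes called is not given here, so these counts are a description. Leaving out 1 tissue array left 1 residual degree of freedom, and no count of calls is read from those fits. Over these fits Pdyn ran from -0.11 to 0.89 in brain, from -0.11 to 0.74 in liver and from -0.43 to 0.57 for brain minus liver, where Tac1 ran from -0.38 to 0.21 and Cartpt from -0.22 to 1.04.

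With replicate 1 or replicate 2 of the panel left out, 0 to 4 precursor genes were called higher and 1 to 5 lower. The 4 and the 1 come from replicate 1 alone, where 36.9% and 24.8% of all genes were called, and the 0 and the 5 from replicate 2 alone, where 22.3% and 26.0% were. The panel mean then ran from -0.23 to 0.63 for Sst, -0.32 to 0.012 for Cck, -0.27 to 0.28 for Vip, -0.080 to 0.059 for Penk, -0.16 to 0.082 for Pdyn, -0.65 to 0.68 for Tac1, -0.066 to 0.12 for Pomc and -0.52 to 0.73 for Cartpt. Counting exact zeros as missing gave -0.029 for Vip and -0.036 for Tac1, and the 28 lines whose arrays match best gave -0.051 for Sst and -0.15 for Tac1. With the arrays scaled 1 gene was higher, and with no size limit 1 was higher and 2 lower. The shares of all genes under these settings are not given here, so the counts are only a description. In alternatives chosen after seeing the data, Penk was 0.0070 without line 23 and Vip -0.00804 without line 42. The count of genes that differ between lines was 0 with no replicate block, 0 with exact zeros missing and 0 without line 23. With exact zeros missing, Vip, Penk, Tac1 and Cartpt could not be tested. How many of all genes differed in these settings is not given here. Vip kept its call with the arrays scaled and over the 28 lines whose arrays match best. The causes were not tested.

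Each tissue has 2 arrays and each precursor gene 1 feature. The comparison with neighbouring genes was not run.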
